A study of Mus musculus with 8 samples.

Results

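Semaphorins, their plexin receptors and the neuropilin co-receptors were followed in liver endothelial cells of mice with transplanted marrow, as 31 genes of 21160 measured on 8 Affymetrix arrays. Members were taken by name: every probe set annotated with a single symbol that is a Sema gene with a number, a plexin of classes A to D, Nrp1, Nrp2, Plxdc1 or Plxdc2. This gave 19 semaphorins, 9 plexins, Nrp2 and both Plxdc genes, each with 1 probe set. Of 33 such genes on the array, Sema4a and Nrp1 share their probe set with a microRNA symbol and are not members. The family was selected on differences between YFP+ and YFP- cells seen earlier on these arrays, so the differences below describe it and are no independent evidence about it.

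Recipients were wild-type mice of the strain written C57BL\6N in the labels, 8 weeks old, irradiated with 2 fractions of 4.5 Gy (9 Gy in all) and then given 5000 LSK cells that carried YFP, a marrow fraction rich in blood stem and progenitor cells. After 1 month, cells without surface CD45 and with CD31 and CD146 were sorted from collagenase-digested liver and divided into YFP- (resident) and YFP+ (marrow-derived) cells. Each group has 4 arrays, called biological replicates in the labels, and both groups come from irradiated, transplanted mice. The promoter that drives YFP and whether each replicate was a separate mouse are not stated by any source at hand, so the p-values cover only how these samples varied, which may be technical.

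Semaphorins are secreted or membrane-bound ligands that share an extracellular sema domain and were first known as guidance cues of growing axons. Plexins are their receptors and carry an intracellular GTPase-activating domain that acts on small GTPases of the Ras family, so that binding changes adhesion and the cytoskeleton. Most class 3 ligands also need a neuropilin, which binds the ligand and VEGF-family factors beside a plexin or a VEGF receptor. In endothelium the family is known for vessel patterning, mostly through repulsion.

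Values are log2 of the intensities normalized by the authors, and all differences are YFP+ minus YFP- in log2 units. An array's background level here is the 95th percentile of its negative control entries, which lay between 8.73 and 9.10 on the log2 scale. A gene was called when its limma p, adjusted by Benjamini-Hochberg over all 21160 genes, was under 0.05. Total depth has no meaning for arrays, and their number, 4 per group, limits the precision. Array medians were alike, from 160.1 to 165.5 intensity units. YFP+ replicate 3 stood apart from its group, with a mean correlation with the other YFP+ arrays of 0.901 (0.930 to 0.941 for those), against 0.962 to 0.969 within the YFP- group.

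Marker lists were checked on the same arrays. The mean of 17 pan-endothelial genes lay between 10.87 and 10.96 on YFP- arrays and between 10.31 and 10.74 on YFP+ arrays, with all 17 differences negative (median -0.32) and 1 gene called. That of 14 pan-leukocyte genes lay between 7.21 and 7.49 on YFP- arrays and between 8.35 and 10.10 on YFP+ arrays, with all 14 differences positive and 6 called. That of 10 bile duct genes ranged from 7.81 to 8.20 on YFP- arrays and from 8.84 to 9.53 on YFP+ arrays, with 7 called higher. In sorted pools, fewer cells of a type and less RNA per cell cannot be told apart.

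In marrow-derived cells, 4 ligand genes and 1 receptor gene below background were called lower than in resident cells, by modest amounts. These calls were not stable. Of the 31 members, 5 were called lower in YFP+ cells (limma), namely the ligand genes Sema3d, Sema3f, Sema6a and Sema6d and the receptor gene Plxna1, against 0.336% of all genes called lower. None was called higher by limma, against 1.27% of all genes; at an unadjusted limma p under 0.05, 3 were higher and 9 lower. The 4 YFP+ values all lay below the 4 YFP- values for 9 members, against 3.82% of all genes, and all above them for 1 member, Sema4g, against 4.8% of all genes. The shares over all genes include many dim genes: 9.61% of all genes were above background on all 8 arrays, as were 11 of the 31 members. With dim genes left out, 118 of 3382 genes were called lower, 4 of them among the 12 members kept. Since the family was proposed with this comparison known, nothing is read from these shares. The median difference was -0.13 over the 31 members, 20 of them negative, and 0.0019 over all genes.

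With 1 array left out, most calls of the 5 genes were lost, except when that array was YFP+ replicate 3. Their differences stayed negative, as they must for groups that do not overlap. Sema3d then lay between -0.70 and -0.59, Sema3f between -0.55 and -0.46, Sema6a between -0.66 and -0.55, Sema6d between -0.75 and -0.61 and Plxna1 between -0.96 and -0.74. No call remained without YFP- replicate 1, 2 or 3 or without YFP+ replicate 4. One gene stayed called without YFP- replicate 4 (Plxna1), without YFP+ replicate 1 (Sema6d) and without YFP+ replicate 2 (Sema3d), and 4 without YFP+ replicate 3. In the 4 fits with an array left out and no member called, calls over all genes also fell, from 340 to between 115 and 183. Quantile or cyclic loess normalization kept 3, Sema3d, Sema6a and Sema6d, and the p-values of the authors' deposited table, adjusted over all genes, kept 0. With the replicate number as a block in limma, none of the 5 was called. Array weights kept all 5. The mean of probe sets kept them too, but each member has 1 probe set, so the values of the 5 genes were unchanged there.

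**Figure D1:**
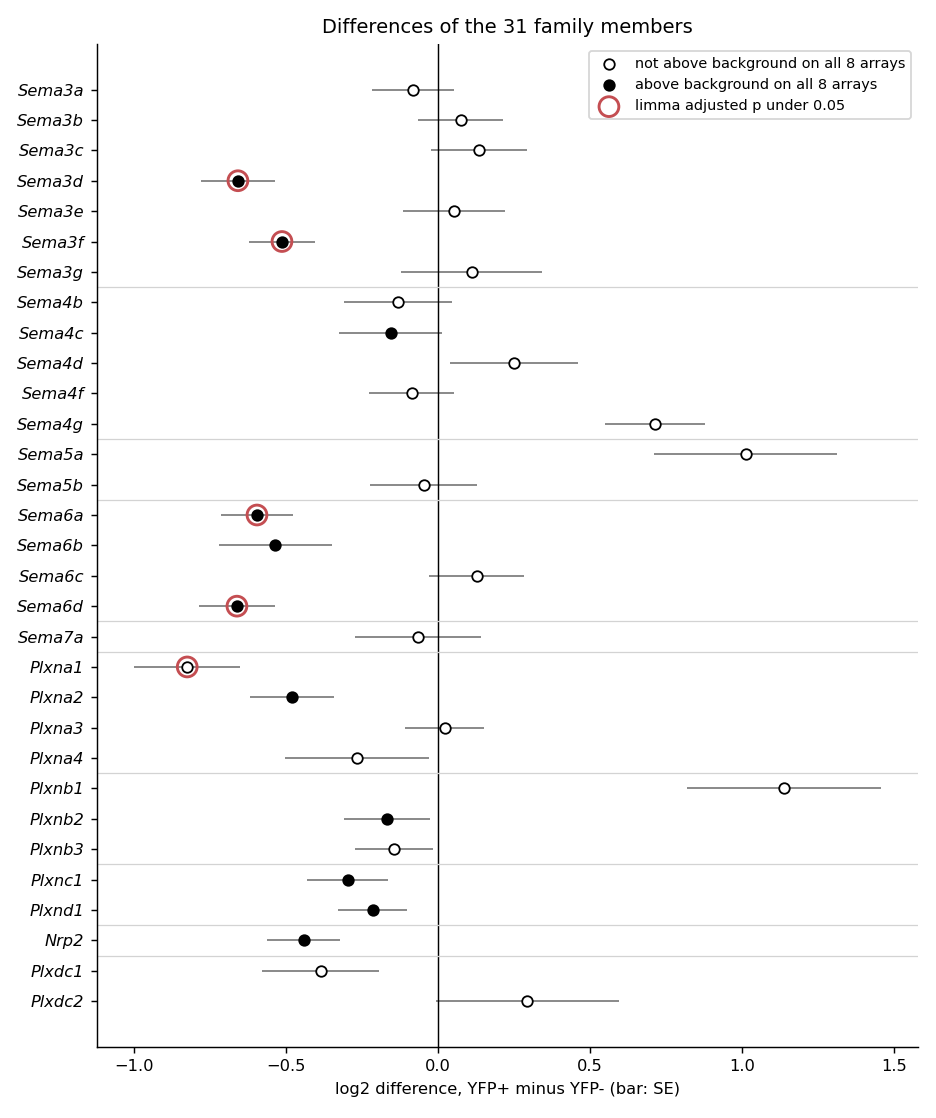
Log2 difference between YFP+ and YFP- cells for each of the 31 members (points, with limma's SE as bars), in blocks by class of ligand or receptor. The 5 circled genes were called lower and have differences between -0.83 and -0.51, while the largest positive difference, 1.14 for Plxnb1, has a wide SE.

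Class 3 semaphorins are secreted. Sema3d, which in mouse repels endothelial cells and helps to pattern veins, gave log2 intensities of 10.02, 10.10, 10.27 and 9.97 on YFP- replicates 1 to 4 and of 9.44, 9.54, 9.23 and 9.50 on YFP+ replicates 1 to 4. No YFP+ array reached the lowest YFP- array. It was 1.58-fold lower in YFP+ cells, a difference of -0.66 (SE 0.12, n = 4 per group, limma adjusted p = 0.0299).

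Sema3f, a ligand of neuropilin-2 that restrains vessel and lymphatic growth, varied little among resident samples, which gave 11.12, 11.06, 11.13 and 11.09. The marrow-derived samples gave 10.67, 10.56, 10.70 and 10.42, all lower. Its log2 difference was -0.51 (SE 0.11, limma adjusted p = 0.0494), a 1.43-fold lower level, with an SD of 0.03 among YFP- and 0.13 among YFP+ arrays. The other 5 class 3 genes measured, Sema3a, Sema3b, Sema3c, Sema3e and Sema3g, were below the background level on every array and had differences between -0.08 and 0.14, none called. Sema3e encodes the ligand that binds plexin D1 without a neuropilin, and Sema3a the classical axon repellent.

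Class 6 semaphorins span the membrane and bind class A plexins. Sema6a, a ligand of plexins A2 and A4, gave 11.28, 11.32, 11.02 and 11.23 on YFP- replicates 1 to 4 and 10.75, 10.54, 10.49 and 10.68 on YFP+ replicates 1 to 4. The groups did not overlap, and the gene fell by 0.60 (SE 0.12, limma adjusted p = 0.0405), 1.51-fold. Sema6d, a ligand of plexin A1 known from heart development, gave 11.27, 11.29, 11.32 and 11.13 in resident and 10.86, 10.53, 10.54 and 10.44 in marrow-derived samples. YFP+ replicate 1 was the highest of its group and still lay below every YFP- array. Its difference was -0.66 (SE 0.12, limma adjusted p = 0.0321), a 1.58-fold lower level.

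Sema6b, a ligand of plexin A4, showed a difference of -0.54 (SE 0.19) that did not pass (limma adjusted p = 0.219). Its YFP- arrays gave 10.34, 10.23, 10.41 and 10.14, and its YFP+ arrays 10.12, 9.76, 9.18 and 9.91. The groups did not overlap, but YFP+ replicate 3 lay far below the rest of its group and YFP+ replicate 1 came close to the lowest YFP- array. The fourth member of the class, Sema6c, was below background on every array, with a difference of 0.13.

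Promoters of Sema3d and Sema6d are shown because both genes were called and are listed in the RefSeq promoter table of GRCm38.p6, and that of Plxnc1 because it held the most motif matches in the family. Each runs from 250 bases before to 50 bases after a transcript start, 5′ to 3′ on the gene's strand; Sema6d has 2 starts. Positions are chr5:12382916-12383215 (+) for Sema3d, chr2:124089719-124090018 (+) and chr2:124653331-124653630 (+) for Sema6d, and chr10:94944796-94945095 (-) for Plxnc1. Capitals mark GAGGAAG, the core letters of sites for PU.1 and other ETS factors.
Sema3d: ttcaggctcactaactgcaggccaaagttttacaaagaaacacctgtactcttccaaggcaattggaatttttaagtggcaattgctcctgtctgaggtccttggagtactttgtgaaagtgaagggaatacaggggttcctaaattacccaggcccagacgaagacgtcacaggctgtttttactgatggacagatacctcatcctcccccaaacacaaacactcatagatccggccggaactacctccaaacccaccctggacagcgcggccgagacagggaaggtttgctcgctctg
Sema6d, first start: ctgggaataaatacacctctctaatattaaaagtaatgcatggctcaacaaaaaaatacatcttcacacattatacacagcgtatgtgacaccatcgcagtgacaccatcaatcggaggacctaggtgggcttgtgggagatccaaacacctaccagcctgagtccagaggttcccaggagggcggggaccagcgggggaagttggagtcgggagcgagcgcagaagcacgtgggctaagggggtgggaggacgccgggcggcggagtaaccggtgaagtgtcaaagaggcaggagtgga
Sema6d, second start: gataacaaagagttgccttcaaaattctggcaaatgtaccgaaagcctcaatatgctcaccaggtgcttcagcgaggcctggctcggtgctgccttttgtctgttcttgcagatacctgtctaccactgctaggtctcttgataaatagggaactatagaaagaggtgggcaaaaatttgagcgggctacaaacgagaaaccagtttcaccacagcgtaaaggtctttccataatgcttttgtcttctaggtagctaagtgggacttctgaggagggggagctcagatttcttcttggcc
Plxnc1: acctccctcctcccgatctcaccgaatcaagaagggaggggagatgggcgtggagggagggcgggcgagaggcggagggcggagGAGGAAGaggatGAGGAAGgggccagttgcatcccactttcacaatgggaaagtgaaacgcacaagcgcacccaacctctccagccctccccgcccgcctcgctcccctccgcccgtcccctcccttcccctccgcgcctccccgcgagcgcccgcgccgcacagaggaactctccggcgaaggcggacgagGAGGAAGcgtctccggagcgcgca

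The letters GAGGAAG were searched, as were TGTGGTT for RUNX factors and the AP-1 letters TGANTCA, on both strands of the 32 promoters of 24 members in that table. None of these letters occurs in the Sema3d and Sema6d windows. GAGGAAG occurs in 9 of the 32 promoters, of 8 genes, against 13.6% of all 32851 promoters, with 3 matches in Plxnc1 and 2 each in Plxnd1 and Sema4f. TGTGGTT occurs in 0 and TGANTCA in 3 of the 32, against 5.27% and 7.81% of all. The Sema3d window has 8 CpG dinucleotides and 49.7% G and C, near the medians of all promoters, 7 and 52.7%, while that of Plxnc1 has 30 and 69.0%. A match describes the letters and is not evidence of binding.

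**Figure D2:**
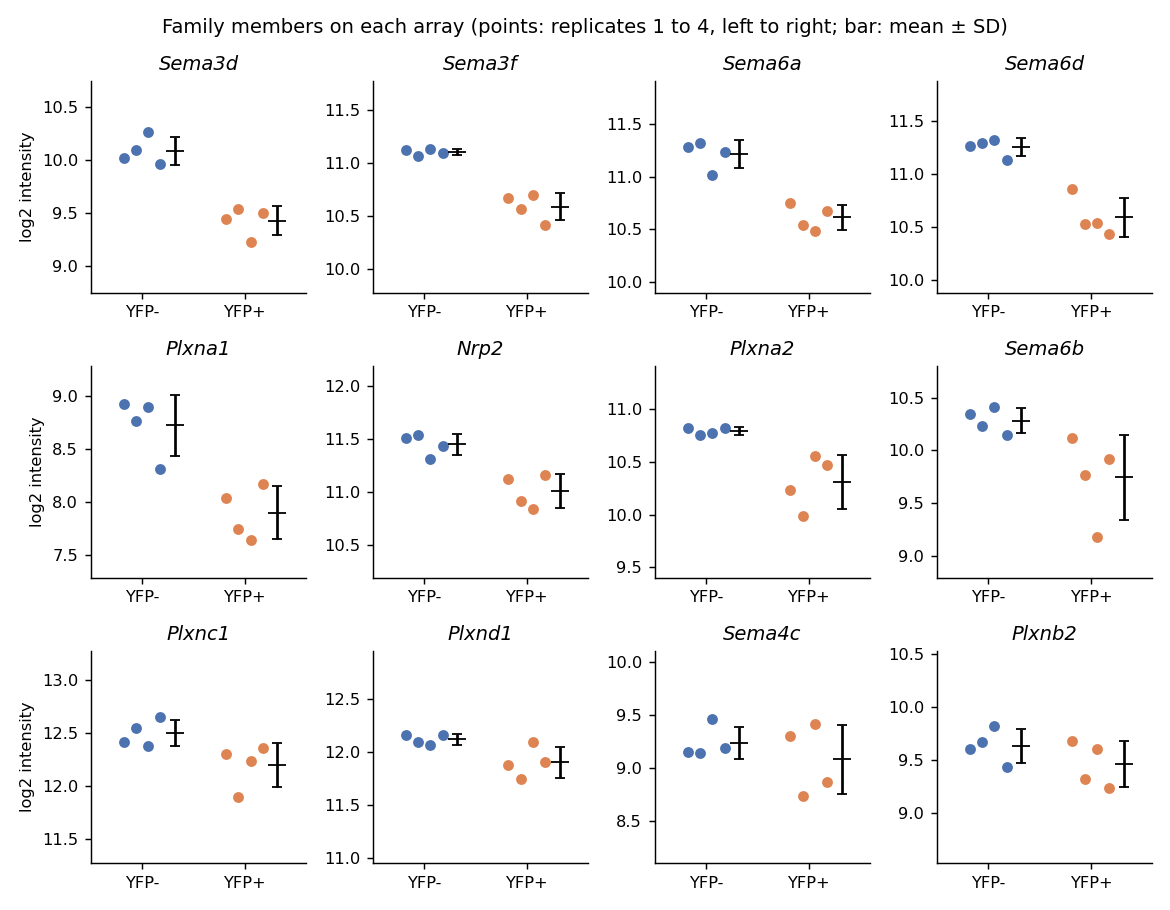
Log2 intensity of 12 members on each array, with points for replicates 1 to 4 of each group and a bar for the mean ± SD (n = 4); each panel spans 2 log2 units around its own centre. The groups are separate for the 5 called genes and for Nrp2, Plxna2, Sema6b and Plxnc1, and overlap for Plxnd1, Sema4c and Plxnb2.

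Class A plexins are the signalling receptors of class 3 and class 6 ligands. Plxna1, the receptor of Sema6d and, with neuropilin-1, of Sema3a, gave 8.93, 8.76, 8.90 and 8.31 on YFP- replicates 1 to 4 and 8.04, 7.74, 7.64 and 8.17 on YFP+ replicates 1 to 4. The groups were separate by a narrow margin, between YFP- replicate 4 and YFP+ replicate 4. It had the largest negative difference in the family, -0.83 (SE 0.17, limma adjusted p = 0.0494). It lay below the background level on all 8 arrays, so no fold is given, and the call was lost with the median of the negative controls subtracted (limma adjusted p = 0.129) and with trended, robust eBayes (limma adjusted p = 0.0564).

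Plxna2, a receptor of Sema6a, was steady in resident samples at 10.82, 10.75, 10.77 and 10.82. Marrow-derived samples gave 10.23, 9.98, 10.55 and 10.47, all lower and more widely spread. The difference of -0.48 (SE 0.14) did not pass (limma adjusted p = 0.137). Plxna4 lay near the background level, above it on 2 arrays of each group, with a difference of -0.27 and overlapping groups. Plxna3 was below background on every array and differed by 0.02.

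The neuropilin Nrp2, co-receptor of Sema3f and of the lymphatic growth factor VEGF-C, gave 11.51, 11.54, 11.32 and 11.44 in resident and 11.12, 10.92, 10.84 and 11.17 in marrow-derived samples. The groups did not overlap. Its difference was -0.44 (SE 0.12), which missed the threshold (limma adjusted p = 0.116).

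Plxnc1, the receptor of Sema7a, and Plxnd1, the endothelial receptor of Sema3e, were above background on all arrays, and neither was called. Plxnc1 gave 12.42, 12.55, 12.38 and 12.65 on YFP- replicates 1 to 4 and 12.30, 11.90, 12.24 and 12.36 on YFP+ replicates 1 to 4. YFP+ replicate 2 was lowest and the groups barely separated, with a difference of -0.30 (SE 0.13, limma adjusted p = 0.370). Plxnd1 gave 12.16, 12.09, 12.07 and 12.16 on YFP- and 11.88, 11.75, 12.10 and 11.91 on YFP+ arrays. YFP+ replicate 3 lay within the resident range, and the difference was -0.22 (SE 0.11, limma adjusted p = 0.459). Their named ligands, Sema7a and Sema3e, were below background on every array, with differences of -0.07 and 0.05.

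Class B plexins bind class 4 semaphorins. Plxnb2, the receptor of Sema4c, gave 9.60, 9.67, 9.82 and 9.43 on YFP- and 9.68, 9.32, 9.61 and 9.23 on YFP+ arrays. Sema4c itself gave 9.15, 9.14, 9.46 and 9.19 on YFP- and 9.30, 8.74, 9.42 and 8.87 on YFP+ arrays. Both pairs of groups overlapped, with differences of -0.17 (SE 0.14, limma adjusted p = 0.698) for Plxnb2 and -0.16 (SE 0.17, limma adjusted p = 0.782) for Sema4c.

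A few dim members had positive differences that limma did not call. Plxnb1, the receptor of Sema4d, gave 7.77, 6.92, 6.36 and 6.52 on YFP- replicates 1 to 4 and 7.97, 7.55, 8.70 and 7.91 on YFP+ replicates 1 to 4. YFP- replicate 1 lay inside the marrow-derived range, so the groups overlapped. The difference was 1.14 (SE 0.32, limma adjusted p = 0.127), with SDs of 0.63 and 0.48. Plxnb1 and Sema5a are named here after their values were seen.

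Sema5a, a transmembrane ligand with thrombospondin repeats, gave 8.06, 7.43, 7.05 and 7.71 on YFP- and 8.71, 7.68, 8.99 and 8.92 on YFP+ arrays. YFP+ replicate 2 alone fell into the resident range. The difference was 1.01 (SE 0.30, limma adjusted p = 0.150), and without that array the gene was called higher (limma adjusted p = 0.0228, difference 1.31). Sema4g, a class 4 transmembrane ligand, gave 7.02, 6.51, 6.86 and 6.40 on YFP- and 7.43, 7.22, 7.35 and 7.65 on YFP+ arrays. All its YFP+ values were higher, and the difference of 0.71 (SE 0.16) missed the threshold (limma adjusted p = 0.0645). It was called with array weights (limma adjusted p = 0.0391). It was also called with the median of the negative controls subtracted (limma adjusted p = 0.0253, difference 1.90). There every YFP- value was set to 16 intensity units, the floor after subtraction. The floor thus fixed the mean and the spread of that group, and nothing is read from that call.

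Plxnb1 and Sema4g were below the background level on every array, and Sema5a was above it on YFP+ replicate 4 alone. Bile duct and hepatocyte markers moved with the group on the same arrays. The bile duct mean was 9.53, 8.84, 8.99 and 9.38 on YFP+ replicates 1 to 4, and the hepatocyte mean was 8.67, 8.99, 8.29 and 8.96. Among YFP+ arrays, these 3 genes and the bile duct mean were lowest on replicate 2, as were the pan-endothelial and liver sinusoidal endothelial means. The bile duct mean was highest on YFP+ replicate 1, where none of the 3 genes was highest. Among YFP- arrays it was highest on replicate 1 (8.20), where all 3 genes were highest too. All 10 bile duct genes had positive differences, 5 were above background on every YFP+ array and 1 on every YFP- array. The part of these cells in the positive differences was not tested.

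**Figure D3:**
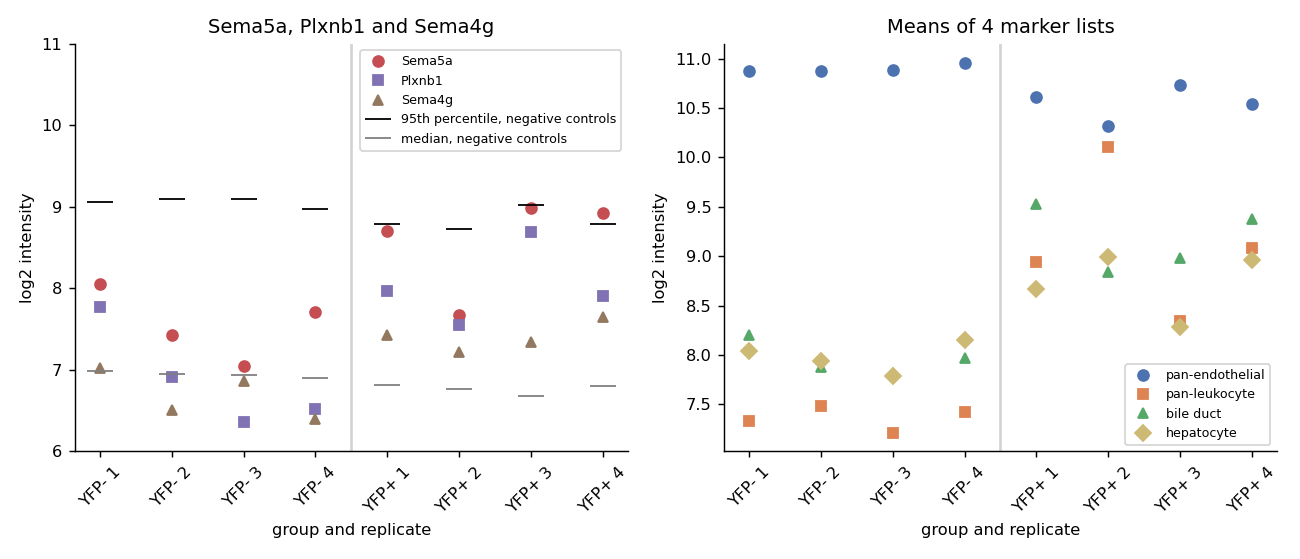
Left, log2 intensity of Sema5a, Plxnb1 and Sema4g on each array with the median and the 95th percentile of that array's negative controls as short lines; right, the mean log2 intensity of 4 marker lists on the same arrays. The 3 genes sit mostly below the 95th percentile, and all 3 were lowest among YFP+ arrays on replicate 2. On that array the pan-endothelial and bile duct means were lowest among YFP+ arrays too, and the pan-leukocyte mean reached 10.10.

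The other 16 members, all but Plxna4 and Sema4b below background on every array, had differences between -0.39 (Plxdc1, limma adjusted p = 0.436) and 0.29 (Plxdc2), 8 of them positive. Plxdc1, a membrane protein known from tumour vessels, had overlapping groups. Plxdc2, its relative, stood at 8.64 on YFP+ replicate 4 and between 7.04 and 7.41 on the 7 other arrays. Sema4d, a ligand of lymphocytes and other cells, was highest at 7.93 on YFP+ replicate 2, the array with the highest pan-leukocyte mean (10.10), and lay between 6.85 and 7.24 on the other 7 arrays. The part of leukocyte RNA in that value was not tested.

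**Figure D4:**
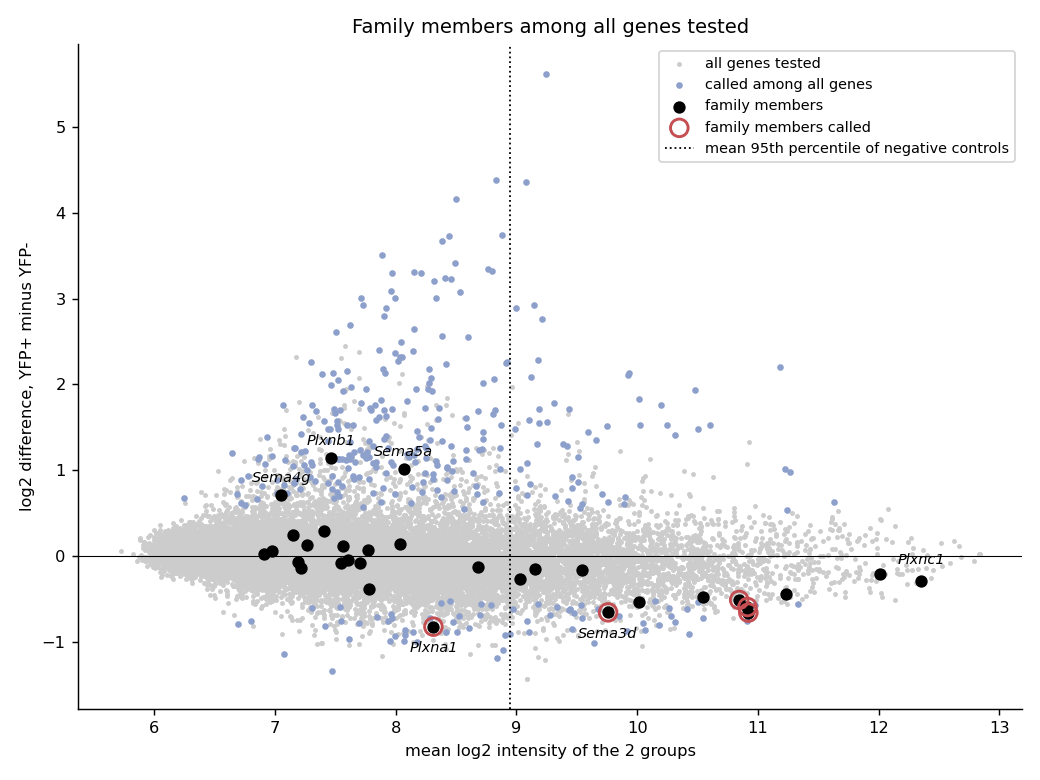
Mean log2 intensity of the 2 groups against the log2 difference for all 21160 genes (grey), the called genes (blue) and the 31 members (black, the 5 called ones circled). The called members lie between -0.83 and -0.51, and Plxnb1, Sema5a and Sema4g lie above 0 to the left of the mean background level (dotted).

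The lower members were also set against endothelial RNA in general, by subtracting the mean of the 17 pan-endothelial genes on the same array. That mean was itself 0.35 lower in YFP+ cells. Relative to it, the differences of the 9 members with separate groups lay between -0.48 (Plxna1) and 0.05 (Plxnc1), 8 of them negative, and the groups overlapped for all 9. Among the called genes the relative difference was -0.31 for Sema3d and Sema6d, -0.25 for Sema6a and -0.17 for Sema3f. Sema3d relative to the list was -0.86, -0.77, -0.61 and -0.99 on YFP- and -1.17, -0.77, -1.50 and -1.04 on YFP+ arrays, so that YFP+ replicate 2 lay within the resident range. The subtraction raises the difference of every member by 0.35, also of members below background. On this relative scale 5 members lay higher on every YFP+ array, Plxnb1, Sema5a, Sema4g, Sema3c and Sema6c. Of these, only Sema4g had separate groups as deposited. Sema3c and Sema6c were below background on every array, with deposited differences of 0.14 and 0.13. The list was chosen with earlier results of these data known, and these relative values were not tested.

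**Figure D5:**
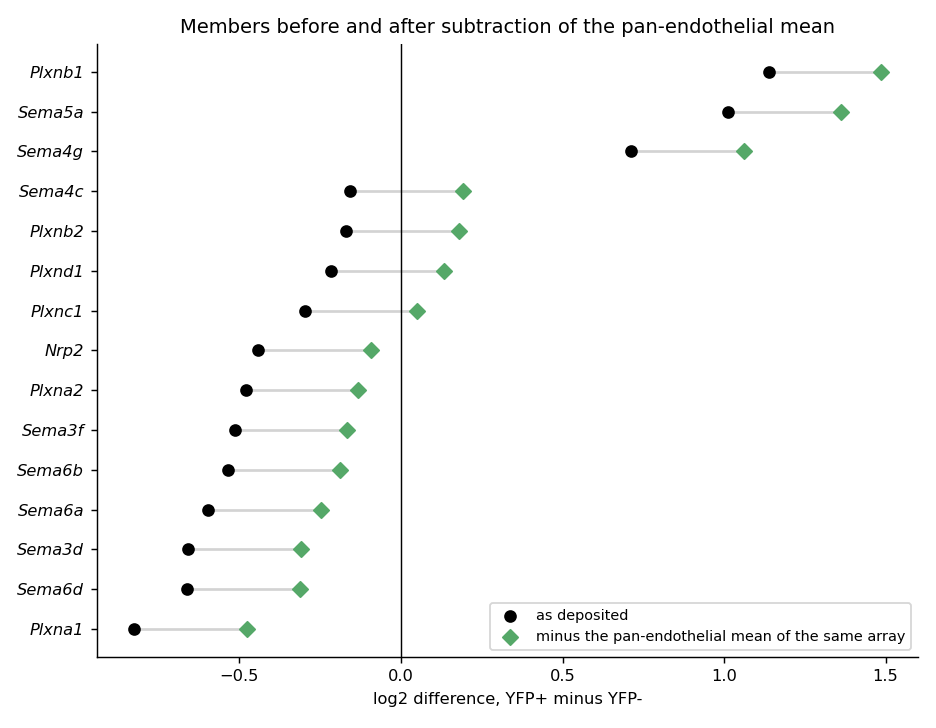
Log2 difference (YFP+ minus YFP-) of 15 members as deposited (black circles) and after subtraction of the pan-endothelial mean of the same array (green diamonds). Every member moves to the right by 0.35, so that Plxnc1, Plxnd1, Plxnb2 and Sema4c lie above 0 and Plxna1, Sema6d and Sema3d keep the most negative values.

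Genes that act with semaphorins and plexins were read from a fixed list of 64, of which 63 were measured. Limma called 3 higher and 0 lower in YFP+ cells, against 1.27% and 0.336% of all genes; at an unadjusted limma p under 0.05, 8 were higher and 8 lower. The median difference of the list was -0.11, and 41 of 63 were negative.

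The called genes were below the background level on every YFP- array. Pak1, a kinase activated by Rac, gave 6.75, 6.77, 6.57 and 6.56 on YFP- and 7.54, 7.52, 7.38 and 7.49 on YFP+ arrays, with a difference of 0.82 (SE 0.11, limma adjusted p = 0.00702). Its groups were tight and separate, although below the background level on all arrays. Mst1r, a receptor kinase that pairs with plexin B1, differed by 0.70 (SE 0.14, limma adjusted p = 0.0360), also below background on every array. Its call was lost in 8 of 16 alternatives, with limma adjusted p-values up to 0.130 when 1 array was left out. Tyrobp, an adaptor that pairs with plexin A1 and Trem2 in myeloid cells and stands on the pan-leukocyte list as well, gave 6.91, 6.98, 6.69 and 6.75 on YFP- and 9.43, 11.26, 8.64 and 10.04 on YFP+ arrays. It was highest on YFP+ replicate 2, as the pan-leukocyte mean was, and differed by 3.01 (SE 0.44, limma adjusted p = 0.00990).

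The 6 listed genes next in order did not pass. Flt1 and Flt4, VEGF receptor genes whose products pair with neuropilins, had differences of -0.57 (limma adjusted p = 0.0663) and -0.43 (limma adjusted p = 0.161), with separate groups. Mmp14, a membrane protease that sheds Sema4d, had -0.65 (limma adjusted p = 0.117), also with separate groups. The groups overlapped for Nck1, an adaptor, at -0.68 (limma adjusted p = 0.0896), and Rras2, a Ras-family GTPase, at -0.58 (limma adjusted p = 0.171). Met, the HGF receptor that pairs with plexin B1, had 0.53 (limma adjusted p = 0.197), with separate groups but below background on every array. Kdr, a listed VEGF receptor gene outside these 6, had -0.12 (limma adjusted p = 0.772), with overlapping groups. Flt1 and Kdr stand on the pan-endothelial list as well. Small GTPases had 9 of 12 negative differences, kinases and adaptors 8 of 11, exchange factors and GTPase-activating proteins 6 of 9, and cytoskeletal effectors 5 of 10. Among 14 co-receptors and other receptors, 8 were negative, and 3 of 5 proteases.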

How the data were processed

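Per the labels' protocols, RNA came from the Arcturus PicoPure kit, and the 3' IVT Pico kit turned 100 pg of it into cRNA labelled with biotin. The deposited values are linear intensities that the authors had normalized, and one of their tables adds an unadjusted p-value per probe set from a test that is not named; the summarization, normalization, background correction, array model and build are not given in sources used here. Values were log2 transformed without further scaling. Of 22206 probe sets of genes, 3 with a missing value and those without exactly 1 symbol in the deposited annotation were left out. Entrez numbers updated 899 symbols through a RefSeq table (GRCm38.p6). The brightest probe set per gene was used, which gave 21160 genes. The groups were compared by lmFit and eBayes of limma 3.58.1 (R 4.3.3), two-sided, with no covariate and Benjamini-Hochberg adjustment over all genes. On simulated data with the residual spread of these genes, this procedure called 22% of changes of 0.5 log2 units and 74% of changes of 1. Of its 155 calls there, 8 were false. Most differences near 0.5 would thus not be called. Python 3.11.15, numpy 2.4.6, pandas 2.3.3 and matplotlib 3.10.9 were used otherwise.

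Members, lists and tests were chosen with earlier results of these data known. Array values are given for called members and for members with separate groups and a difference of at least 0.5. They are also given for members above background on all 8 arrays. Of the other pathway genes, the called ones and the 6 with the smallest p otherwise are named. Kdr and L1cam are named outside that rule. Alternatives were quantile and cyclic loess normalization, subtraction of the negative control median with a floor of 16, a filter on dim genes, the mean of probe sets, trended and robust eBayes, array weights, the replicate number as a block, each array left out in turn, and the deposited p-value. One alternative, without YFP+ replicates 2 and 3, was added after the data were seen.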

Additional observations from a re-analysis of the deposited data

Results flagged for a closer look

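Among 80 groups of 4 arrays tested for a sample far from the others (40 genes, 2 groups each), 2 held one, while chance alone flags about 1 in 20 groups. Sema4c stood at 9.46 on YFP- replicate 3, above the 9.14 to 9.19 of the other YFP- arrays. The adaptor gene Nck1 stood at 9.28 on YFP- replicate 2, below the 9.72 to 9.79 of the other YFP- arrays. What set these values apart was not tested.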

How the results depend on the processing

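All 24 genes followed through the alternatives, Kdr and L1cam not among them, kept the direction of their difference wherever they had a value. The calls were not stable, and for groups that do not overlap a kept direction under left-out arrays is no sign of stability. The 5 lower calls among members became 3 after quantile and 3 after cyclic loess normalization, 0 with the replicate block, between 0 and 4 with an array left out, 1 without YFP+ replicates 2 and 3, and 0 with the authors' deposited p-value after adjustment, where 10 members were lower and 3 higher at an unadjusted p under 0.05. The 0 higher calls became 1 with the negative control median subtracted (Sema4g, its YFP- values all at the floor) and 1 with array weights (Sema4g). They became between 0 and 1 with an array left out (Sema5a), and 1 without YFP+ replicates 2 and 3 (Sema5a). Pathway genes had 0 higher calls in place of 3 with dim genes left out. In place of 0 lower calls they had 2 with dim genes left out, 1 with trended and robust eBayes, 2 with array weights, between 0 and 1 with an array left out, and 1 without YFP+ replicates 2 and 3. Leaving out dim genes kept 12 members and moved their median difference from -0.13 to -0.46, a change that comes from the smaller set. The median over the 3382 genes kept was -0.077. In all, 6 members passed the 99th percentile of negative controls on every array in place of 11 passing the 95th, and 25 passed their median. Where no construction shows it, the cause of these changes was not tested.

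The labels do not state whether a replicate number marks a shared mouse, although the headers of the authors' deposited table number both groups alike. Deviations of same-numbered arrays from their group means correlated between 0.019 and 0.159 over all genes, against -0.130 to 0.067 for other pairs. In all, 7 of 8 arrays correlated best with the array of their own number. With the replicate number as a block, limma called 241 genes in place of 340 and none of the members, with adjusted p-values between 0.0640 (Sema6d) and 0.108 (Plxna1) for the 5 genes.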

Other observations

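Nrp1, the co-receptor of class 3 semaphorins and VEGF, and Sema4a, a ligand of immune cells, were read only by probe sets that also carry a microRNA symbol. The probe set of Nrp1 and Mir1903 gave 11.07, 10.22, 10.35 and 10.40 on YFP- replicates 1 to 4 and between 9.76 and 10.15 on the 4 YFP+ arrays, so all YFP+ values were lower. The probe set of Sema4a and Mir7011 gave 7.64, 7.69, 7.99 and 7.99 on YFP- and 7.54, 8.05, 7.98 and 7.77 on YFP+ arrays, and the groups overlapped. Neither was tested.

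L1cam, a neural adhesion molecule that pairs with neuropilin-1 and is on the pathway list, is named here after its values were seen. It gave 9.55, 10.77, 6.82 and 10.22 on YFP+ replicates 1 to 4 and 8.13, 7.60, 7.07 and 7.22 on YFP- replicates 1 to 4, a difference of 1.84 that did not pass (limma adjusted p = 0.268).

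Other marker lists gave the following. The 12 liver sinusoidal endothelial genes all had negative differences (median -0.25, 0 called by limma, 5 lower at an unadjusted p under 0.05). Positive differences were found for 11 of 11 megakaryocyte and platelet genes (4 called), 13 of 14 monocyte, macrophage and Kupffer genes (6 called), 8 of 9 mast cell and basophil genes (4 called) and 10 of 10 hepatocyte genes (3 called). T, natural killer and B cell genes had 9 of 12 positive, and stellate and pericyte genes 9 of 12, with 0 called by limma in both lists and 7 and 1 higher at an unadjusted p under 0.05.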
